A study of Homo sapiens with 8 samples.

Results

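The transforming growth factor beta (TGF-β) pathway genes examined here are the SMAD genes SMAD1 to SMAD7, the receptor genes TGFBR1 and TGFBR2, and SKI. They were followed through the Ago2-RIP-Chip arrays of ST486, a human Burkitt lymphoma (BL) B-cell line. Members were all non-control probes whose RefSeq accession on the array maps to one of these 10 genes. This gave 16 probes of the 10 genes, out of 41000 probes on the array, of which 23958 could be given a symbol (16557 genes). The accessions of the SMAD2 and TGFBR2 probes differ between probes of the same gene, and probes of a gene are not replicates of a condition.

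ST486 cells were transduced with an empty MXW-PGK-IRES-GFP vector (EV-ST486) or with the same vector carrying miR-155 (miR-155-ST486). Both groups thus received the vector with GFP and come from 1 cell line. The paper describes sorting of GFP+ cells to check miR-155 overexpression, and does not say whether the cells used for the IP were sorted. From each cell population, RNA was taken of the whole lysate (total, T) and of the complexes precipitated by an Ago2 antibody (IP). Cy3 and Cy5 labellings were made of all 4 RNA samples, and IP and T of the same cells shared 2-colour arrays in both dye orientations, giving 4 arrays and 8 channels. The labellings are technical repeats, so each condition has n = 1, no test was run, and the values of both labellings or dye orientations are given as the spread. Where conditions are said to overlap or to lie apart, only their labellings are meant. The share of all probes with such a separation was not computed.

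Ligands of the TGF-β family bind pairs of type II and type I receptor kinases at the cell surface. The type I receptor then phosphorylates receptor SMADs (SMAD2 and SMAD3 for TGF-β and activin, SMAD1 and SMAD5 for bone morphogenetic proteins), which enter the nucleus together with SMAD4. SMAD6 and SMAD7 inhibit the pathway, and SKI represses SMAD-dependent transcription. In B cells TGF-β is known to restrain growth and to promote cell death. Ago2 holds a miRNA on its target transcripts, so a transcript bound by loaded Ago2 is recovered in the IP fraction. SMAD1, SMAD2 and SMAD5 are reported targets of miR-155, and TGFBR2 is a reported target of the miR-17 family. The mature miRNAs are shown because those reports rest on pairing with their seeds, bases 2 to 8, which are in capitals. Sequences are from RefSeq (GRCh38.p14). The miR-155 gene lies at chr21:25573983-25574006 on the + strand for the mature 5p arm, and miR-17-5p at chr13:91350618-91350640 on the + strand.
hsa-miR-155-5p: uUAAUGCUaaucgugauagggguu
hsa-miR-17-5p: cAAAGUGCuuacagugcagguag
hsa-miR-20a-5p: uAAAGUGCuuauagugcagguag
hsa-miR-20b-5p: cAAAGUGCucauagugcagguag
hsa-miR-93-5p: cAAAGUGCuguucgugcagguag
hsa-miR-106a-5p: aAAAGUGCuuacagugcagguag
hsa-miR-106b-5p: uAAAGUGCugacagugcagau
The 6 miRNAs of the miR-17 family share the seed AAAGUGC, and miR-155-5p has the seed UAAUGCU. miRNA levels were not measured on these arrays, and target sites in the member transcripts were not searched here.

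Signals were quantile-normalized over the 8 channels. A probe was kept when it was detected in at least 4 channels and its labellings lay within 2-fold of each other in each RNA sample, which held for 15529 probes. The channels detected between 14094 and 22161 probes, with 14094 to 19684 in Cy5 and 19189 to 22161 in Cy3, and no spot was saturated. Among B-cell markers, CD38, CD79A, CD79B, MME and MS4A1 were detected in all 8 channels, CD22 was detected in some and PAX5 in none. The T-cell and fibroblast markers were detected in no channel, whereas VWF (an endothelial marker) and CD14 and CD33 (myeloid markers) were detected in some. A probe of MIR155HG, the host gene of miR-155, was not well above background in EV-ST486 total RNA in either labelling, and was detected in both labellings of miR-155-ST486 total RNA, at least 1.40-fold higher. The EV-ST486 arrays and the miR-155-ST486 arrays were on separate slides, so that slide and vector cannot be told apart in any comparison between the cells, whereas IP and T of the same cells were compared within arrays.

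Of the 16 member probes, 9 were kept, representing SMAD1 (probes 1 and 2), SMAD2 (probes 1, 2 and 4), SMAD3, SMAD4, SMAD5 and TGFBR2 (probe 1). All of these were detected in all 8 channels except SMAD2 probe 4, which was detected in 6 and missed in Cy5 of both IP samples. Another 4 probes were detected in at least 4 channels but differed by more than 2-fold between labellings of a sample: SKI probe 2 (up to 2.77-fold), SMAD2 probe 3 (up to 3.12-fold), SMAD6 (up to 2.12-fold) and SMAD7 (up to 2.06-fold). The last 2 therefore lay just outside the limit of 2-fold. The remaining 3 were detected in fewer than 4 channels, namely TGFBR1 and SKI probe 1 in none and TGFBR2 probe 2 in 1. TGFBR1, the type I receptor for TGF-β, was thus not above background in any of the 4 RNA samples by its 1 probe, and SKI, SMAD6 and SMAD7 had no probe that passed both filters.

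**Figure D1:**
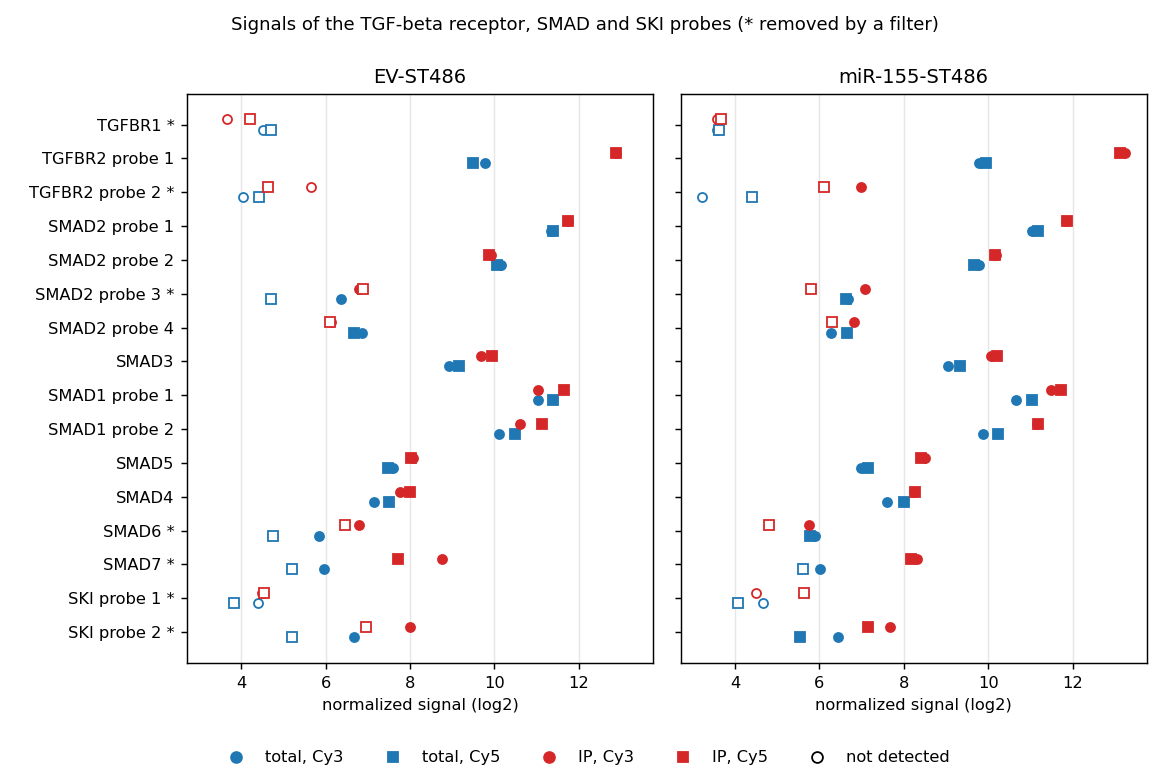
Normalized signal (log2) of each of the 16 member probes in EV-ST486 (left) and miR-155-ST486 (right), with total RNA in blue, IP RNA in red, circles for Cy3, squares for Cy5 and open symbols where the probe was not detected; each point is 1 channel. TGFBR2 probe 1 shows the widest gap between IP and total signals among the kept probes, and all 8 symbols of TGFBR1 are open.

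Enrichment in the Ago2-IP was expressed as the IP/T ratio, and a probe was called enriched at an IP/T of at least 2. In EV-ST486 cells 1 of the 9 kept member probes was enriched, TGFBR2 probe 1, against 12.1% of all kept probes. In miR-155-ST486 cells 3 were enriched, TGFBR2 probe 1, SMAD5 and SMAD1 probe 2, against 12.2% of all kept probes. When the ratio had to be at least 2 in both dye orientations, TGFBR2 probe 1 remained in EV-ST486 cells (9.39% of all kept probes), and TGFBR2 probe 1 and SMAD5 in miR-155-ST486 cells (10.4%). No kept member probe had an IP/T of 0.5 or lower in either cell population, against 10% and 9.83% of all kept probes. With so few members, neither the 1 nor the 3 calls set the genes apart from the array as a whole.

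The median IP/T of the 9 probes was 1.43 in EV-ST486 and 1.69 with miR-155, beside medians of 0.90 and 0.88 over all kept probes. Above 1 in both dye orientations were 6 of the 9 in EV-ST486 cells (31.4% of all kept probes) and 9 of the 9 in miR-155-ST486 cells (33.3%). This cut at 1 was chosen after the values were seen, and the probes of the same gene share their transcripts.

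TGFBR2, the type II receptor that binds TGF-β and activates the type I receptor, had by far the highest IP/T of the kept members. In total RNA of EV-ST486 cells TGFBR2 probe 1 gave normalized signals of 872 (Cy3) and 724 (Cy5), while the IP gave 7604 and 7525. In miR-155-ST486 cells it gave 889 and 997 in total RNA and 9773 and 8914 in the IP. The IP signals lay above every total signal in both cell populations, which is certain at such a distance for a probe whose labellings lie within 2-fold. The IP/T was 9.52 in EV-ST486 cells (10.5 with IP in Cy3, 8.63 with IP in Cy5), a value exceeded by 1.17% of all kept probes. It was 9.92 in miR-155-ST486 cells (9.80 and 10.03), exceeded by 0.966% of all kept probes. With normexp, loess and Aquantile these ratios were 5.57 and 7.55, still past 2-fold. The ratio between the cells, miR-155/EV, was 1.04, with the orientations on opposite sides of 1 (0.934 and 1.16). Enrichment of TGFBR2 was thus present without the miR-155 construct, and no difference larger than the spread of the orientations was seen between the cells.

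The other TGFBR2 probe, designed to another RefSeq transcript, was not well above background in total RNA of either cell population nor in the IP of EV-ST486 cells. In the IP of miR-155-ST486 cells it was detected in 1 of 2 labellings, with normalized signals of 126 in Cy3 and 69.5 in Cy5. Since the total signal is only a bound, the IP/T of this probe in miR-155-ST486 cells can be given only as at least 1.32-fold. This probe thus gives no second measurement of the enrichment seen with probe 1.

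**Figure D2:**
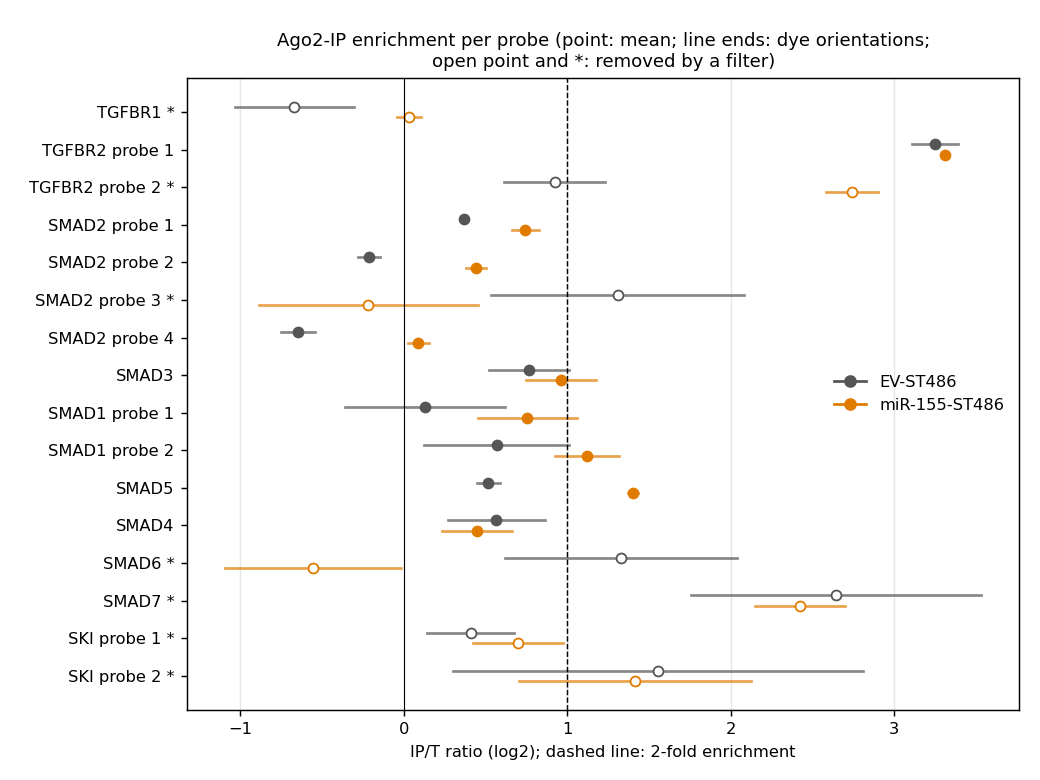
IP/T ratio (log2) of the 16 member probes in EV-ST486 (grey) and miR-155-ST486 cells (orange); points are means of the dye orientations, line ends the orientations, and open points probes removed by a filter. TGFBR2 probe 1 lies above 3 on the log2 scale in both cell populations, and SMAD5 crosses the 2-fold line only in miR-155-ST486 cells.

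Among the SMADs that carry bone morphogenetic protein signals, SMAD5 differed most between the cells, though not with normexp background correction. SMAD5 gave 192 and 178 (Cy3 and Cy5) in EV-ST486 total RNA and 268 and 262 in the EV-ST486 IP. In miR-155-ST486 cells the signals were 126 and 141 in total RNA and 366 and 340 in the IP. In both labellings the signals rose in the order miR-155-ST486 total, EV-ST486 total, EV-ST486 IP and miR-155-ST486 IP. The IP/T was 1.43 in EV-ST486 (1.503 and 1.36, IP in Cy3 first here and below) and 2.65 with miR-155 (2.59 and 2.71). The miR-155/EV ratio was 1.85 (1.72 and 1.99), a value exceeded by 1.61% of all kept probes but below the 2-fold threshold. It combined a lower total signal in miR-155-ST486 cells, 0.720 of that in EV-ST486 (0.654 in Cy3, 0.792 in Cy5), with a higher IP signal, 1.33-fold (1.36 and 1.30). With normexp background correction the SMAD5 IP/T in miR-155-ST486 cells came below 2, with 1.44 as its lowest value over the alternatives. The SMAD5 miR-155/EV ratio then fell to 1.35 (quantile) and 1.40 (loess and Aquantile). Both SMAD1 probes lay above it, at 1.52 each (quantile) and at 1.57 and 1.67 (loess and Aquantile).

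SMAD1, the other BMP-activated SMAD, had 2 kept probes that moved alike. SMAD1 probe 1 gave 2083 and 2680 in EV-ST486 total RNA, 2092 and 3195 in its IP, 1624 and 2117 in miR-155-ST486 total RNA and 2898 and 3382 in that IP. The dye shifted this probe in every sample, with Cy5 above Cy3, and the labellings of EV-ST486 total and IP overlapped. Its IP/T was 1.09 in EV-ST486 (0.781 and 1.53) and 1.69 with miR-155 (1.37 and 2.08), and its miR-155/EV ratio 1.54 (1.75 and 1.36). SMAD1 probe 2 gave 1102 and 1431 in EV-ST486 total RNA, 1562 and 2222 in its IP, 939 and 1201 in miR-155-ST486 total RNA and 2278 and 2342 in that IP. The totals of the cells overlapped between dyes, while within each dye the total was lower and the IP higher in miR-155-ST486 cells. Its IP/T was 1.48 in EV-ST486 (1.09 and 2.02) and 2.18 with miR-155 (1.90 and 2.49), which makes its call at 2-fold dependent on the orientation, and its miR-155/EV ratio was 1.47 (1.74 and 1.24).

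SMAD2, which carries TGF-β and activin signals, had 3 kept probes. The best sampled is SMAD2 probe 1, with 10 spots per array. It gave 2597 and 2692 in EV-ST486 total RNA, 3412 and 3409 in its IP, 2105 and 2342 in miR-155-ST486 total RNA and 3706 and 3729 in that IP. The IP/T was 1.29 in EV-ST486 (1.27 and 1.31) and 1.67 with miR-155 (1.58 and 1.77), and the miR-155/EV ratio 1.30 (1.25 and 1.35), exceeded by 10.8% of all kept probes. Over the 10 spots, the log2 IP/T before normalization between arrays was 0.41 ± 0.19 and 0.43 ± 0.24 (SD) on the 2 EV-ST486 arrays, and 0.70 ± 0.07 and 0.86 ± 0.07 on the 2 miR-155-ST486 arrays. These SDs describe spots of the same array, not RNA samples.

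SMAD2 probe 2 gave 1141 and 1066 in EV-ST486 total RNA, 964 and 940 in its IP, 882 and 817 in miR-155-ST486 total RNA and 1156 and 1148 in that IP. In both labellings the IP lay below the total in EV-ST486 cells and above it in miR-155-ST486 cells. The EV-ST486 total in Cy3 (1141) and the miR-155-ST486 IP in Cy5 (1148) came close to each other. The IP/T was 0.863 (0.905 and 0.824) and 1.36 (1.42 and 1.30), and the miR-155/EV ratio of 1.57 had the closest orientations of the kept members (1.56 and 1.58). Under both normexp background corrections this crossing of 1 was lost, with an IP/T in EV-ST486 of 1.17 (quantile) and 1.16 (loess and Aquantile) and a miR-155/EV ratio of 1.03 and 1.15. SMAD2 probe 4 was dimmer, with 116 and 102 in EV-ST486 total RNA, 69.8 and 69.1 in its IP, 77.5 and 101 in miR-155-ST486 total RNA and 112 and 78.9 in that IP. Its IP/T was 0.638 (0.686 and 0.594) and 1.06 (1.11 and 1.02), and its miR-155/EV ratio 1.67 (1.62 and 1.71), which became 1.31 and 1.17 under the same corrections. The probes of SMAD2 therefore differed in whether the transcript was above or below 1 in EV-ST486 cells. A crossing of 1 between the cells in both orientations, as for probes 2 and 4, was seen in 3.23% of all kept probes, counting either direction. All 3 kept probes of SMAD2 had a higher IP/T in miR-155-ST486 cells in both orientations. SMAD2 probe 3, removed for its dye difference, went the other way, with an IP/T of 2.48 in EV-ST486 (4.24 and 1.45) and 0.861 with miR-155 (1.37 and 0.541). It was missed in Cy5 in 3 of the 4 RNA samples, and its miR-155/EV ratio of 0.348 became 1.02 with normexp, loess and Aquantile.

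SMAD3, the other TGF-β-activated SMAD, gave 489 and 570 in EV-ST486 total RNA, 818 and 986 in its IP, 525 and 642 in miR-155-ST486 total RNA and 1080 and 1190 in that IP. The IP lay above the total in both cell populations, and the totals of the cells overlapped. The IP/T was 1.70 (1.44 and 2.02) in EV-ST486 and 1.95 (1.68 and 2.26) with miR-155, and the miR-155/EV ratio 1.15 (1.17 and 1.12). SMAD4, the common partner of the receptor SMADs, gave 141 and 180 in EV-ST486 total RNA, 217 and 258 in its IP, 193 and 258 in miR-155-ST486 total RNA and 304 and 306 in that IP. It was the kept member with the highest total ratio, 1.40-fold higher in miR-155-ST486 cells (1.37 in Cy3 and 1.43 in Cy5). Its IP/T was 1.48 (1.205 and 1.82) and 1.37 (1.18 and 1.58), and its miR-155/EV ratio 0.921 (0.977 and 0.869) was the only one below 1 among the kept members, though it was 1.06 with normexp, loess and Aquantile. Over 10 spots each, SMAD3 had log2 IP/T of 0.58 ± 0.30 and 0.99 ± 0.25 (SD) on the EV-ST486 arrays and 0.79 ± 0.08 and 1.22 ± 0.06 on the miR-155-ST486 arrays. The corresponding values of SMAD4 were 0.35 ± 0.26 and 0.72 ± 0.42, and 0.27 ± 0.12 and 0.64 ± 0.23. For both genes the difference between the orientations exceeded that between the cells.

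The inhibitors of the pathway were dim and were removed for dye differences, so their values are given without a call. SMAD7, which blocks the type I receptor, was detected in both labellings of both IPs and, of the totals, in Cy3 alone. Its signals were 61.7 and 37.1 in EV-ST486 total RNA, 429 and 209 in its IP, 64.6 and 49.0 in miR-155-ST486 total RNA and 318 and 287 in that IP. All 4 IP signals lay above all 4 total signals, and the IP/T was 6.26 (11.6 and 3.38) and 5.37 (6.49 and 4.44). These ratios came below 2 under both normexp corrections, at 1.58 and 1.502 with quantile normalization and at 1.34 and 1.52 with loess and Aquantile. SMAD6, which acts mainly on the BMP branch, was detected in Cy5 in only 1 of the 4 RNA samples. It gave 57.2 and 26.9 in EV-ST486 total RNA, 111 and 87.8 in its IP, 60.0 and 54.6 in miR-155-ST486 total RNA and 54.0 and 28.1 in that IP. Its IP/T was 2.51 (4.11 and 1.54) in EV-ST486 and 0.681 (0.989 and 0.469) with miR-155. With normexp both lay just above 1, at 1.15 and 1.04 (quantile) and 1.08 and 1.05 (loess and Aquantile), so neither the crossing of 1 nor the size of the difference was retained. SKI probe 2 gave 101 and 36.7 in EV-ST486 total RNA, 257 and 125 in its IP, 86.8 and 46.9 in miR-155-ST486 total RNA and 205 and 142 in that IP. Its IP/T was 2.94 (7.01 and 1.23) and 2.67 (4.37 and 1.63), above 1 in both orientations of both cells, but with orientations that differed more than the cells did. With normexp they were 1.56 and 1.33 (quantile) and 1.30 and 1.38 (loess and Aquantile), below 2.

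The comparison that addresses targets of miR-155 is the miR-155/EV ratio. No kept member had a ratio of at least 2 (1.15% of all kept probes) or of 0.5 or lower (0.477%). The ratios ran from 0.921 for SMAD4 to 1.85 for SMAD5, with a median of 1.47 beside 0.98 over all kept probes. The ratio was above 1 for 8 of the 9 probes (46.4% of all kept probes). A ratio above 1 in both orientations was seen for 7 of the 9 probes, those of SMAD1, SMAD2, SMAD3 and SMAD5, against 26.7% of all kept probes. Counting above 1 was not planned in advance. The 4 probes removed for dye differences alone had mean ratios below 1, at 0.908 (SKI probe 2), 0.348 (SMAD2 probe 3), 0.271 (SMAD6) and 0.859 (SMAD7). Without the dye filter 8 of 13 probes were above 1. With normexp and quantile normalization 7 of 13 were, with a median ratio of 1.03. With normexp, loess and Aquantile 12 of 13 were, with a median of 1.17. Over all 15529 kept probes the miR-155/EV ratios of the orientations correlated with r = 0.32, and their difference had an SD of 0.51 on the log2 scale. The points share arrays and normalization. The 5th and 95th percentiles of the ratio over all kept probes were 0.68 and 1.47. SMAD5, SMAD2 probes 2 and 4 and SMAD1 probe 1 lay beyond the upper of these, and SMAD1 probe 2 at it. For scale, DET1 and JARID2, miR-155 targets outside this pathway, gave miR-155/EV ratios of 12.6 and 3.02. The DET1 ratio was the highest of all kept probes, and the study had picked DET1 by its Ago2-IP enrichment with miR-155. In the Cy3 labellings alone, SMAD5 and SMAD2 probe 4 passed 2-fold, and in the Cy5 labellings alone none did.

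**Figure D3:**
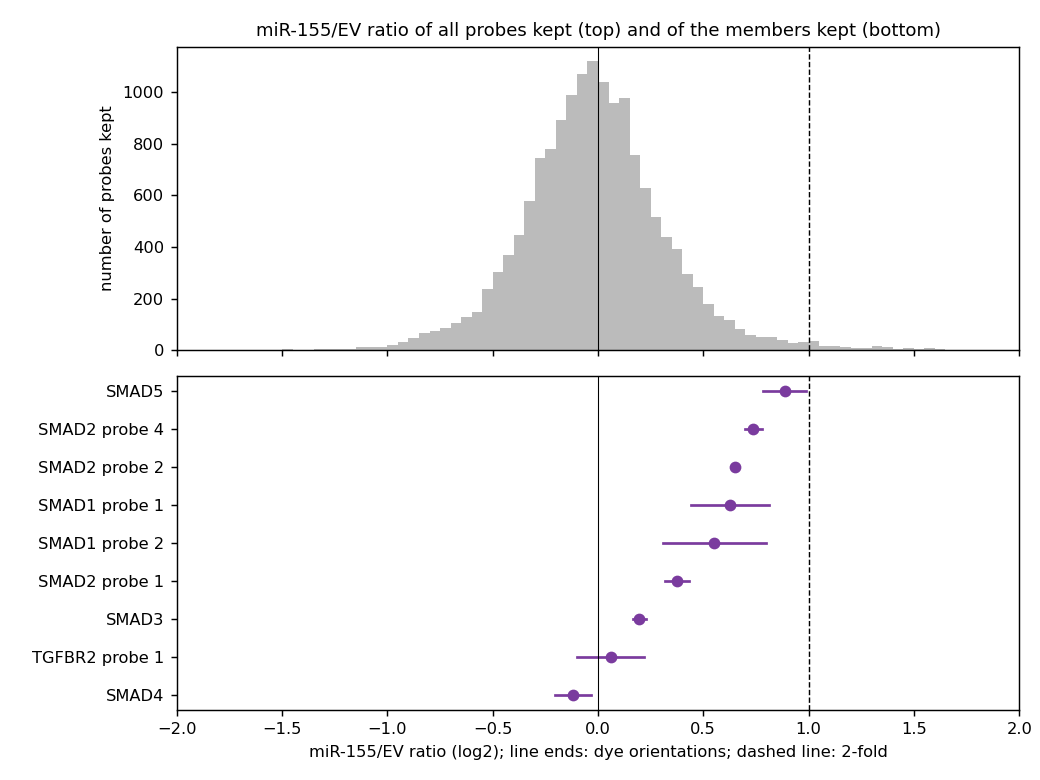
Top, number of kept probes by miR-155/EV ratio (log2, bins of 0.05). Bottom, the 9 kept member probes on the same axis, with points for means and line ends for the dye orientations. None of the means reaches the dashed 2-fold line, and 8 of 9 lie above 0. Member probes removed by a filter are not shown.

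In total RNA no kept member changed 2-fold between the cells (0.676% of all kept probes were at least 2-fold higher and 0.38% at least 2-fold lower in miR-155-ST486 cells). The arrays measure RNA of all cells together, so fewer cells with a transcript and less of it per cell cannot be told apart. The 6 kept probes of SMAD1, SMAD2 and SMAD5 were lower with miR-155 in both labellings, against 34.5% of all kept probes. The mean ratios were 0.785 and 0.846 for SMAD1 probes 1 and 2, 0.840, 0.770 and 0.814 for SMAD2 probes 1, 2 and 4, and 0.720 for SMAD5. For SMAD2 probe 4 the ratio in Cy5 was 0.994. SMAD3, SMAD4 and TGFBR2 probe 1 were higher in both labellings, with ratios of 1.101, 1.40 and 1.18 (37.3% of all kept probes). In the IP fraction all 9 kept members were higher in miR-155-ST486 cells in both labellings, against 34.4% of all kept probes, with means from 1.09 (SMAD2 probe 1) to 1.36 (SMAD2 probe 4). For SMAD2 probe 4 the Cy5 IP signals compared were not detected in either cell population.

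A lower total and a higher IP signal in both labellings were thus combined in the 6 kept probes of SMAD1, SMAD2 and SMAD5, against 4.31% of all kept probes. The opposite combination was seen in none of the 9 and in 3.99% of all kept probes. This combination was chosen after the values were seen, and 5 of the 6 probes share their gene with another. SMAD2 probe 4 was counted with a Cy5 total ratio of 0.994 and with Cy5 IP signals that were not detected. Without quantile normalization the median total ratio of all kept probes was 0.44 on the log2 scale, against 0.017 in the main processing. Of the 5 SMAD1, SMAD2 and SMAD5 probes then kept, 1 had a total ratio below 1, but all 5 lay below the median of all kept probes. With normexp and quantile normalization 5 of the 6 were below 1.

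**Figure D4:**
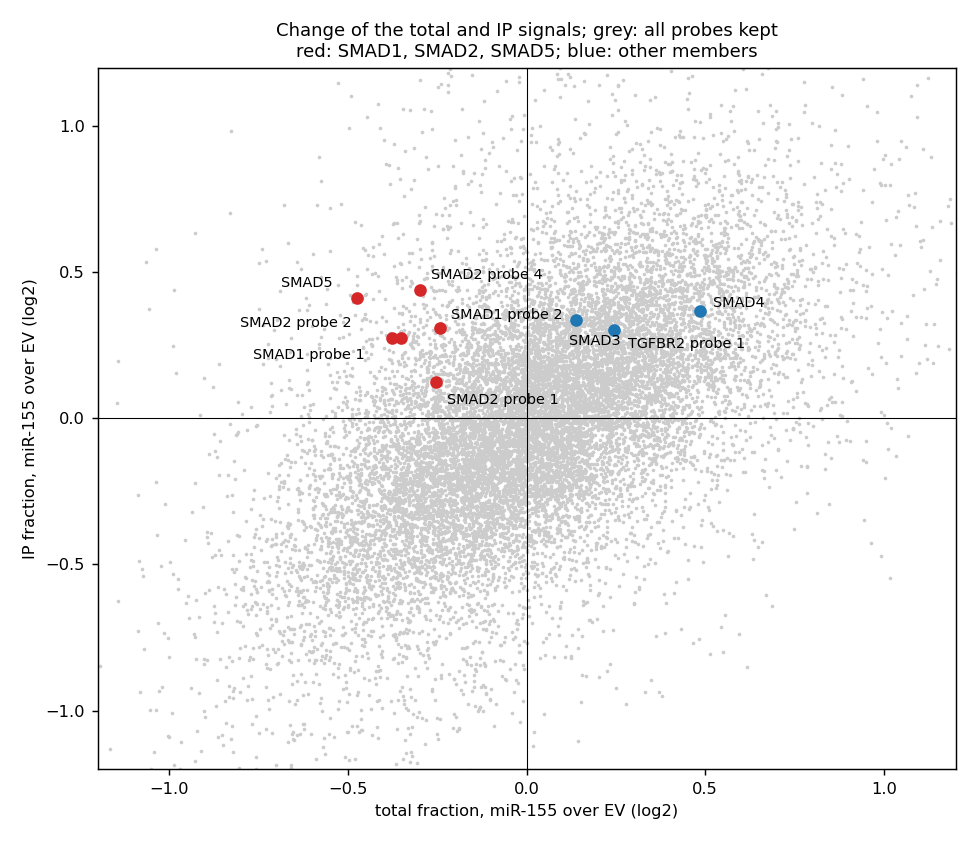
Change of the IP signal against change of the total signal between miR-155-ST486 and EV-ST486 cells (both log2) for all kept probes (grey; 187 lie outside the axes) and the 9 kept members, each point being the mean of the labellings. The 6 SMAD1, SMAD2 and SMAD5 probes (red) lie in the upper left quadrant, and SMAD3, SMAD4 and TGFBR2 probe 1 (blue) in the upper right.

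The rest of the pathway was described by 6 lists with 100 genes, which had 152 probes on the array, 61 of them (47 genes) kept. An IP/T of at least 2 was seen for 17 of the 61 in EV-ST486 (27.9%, against 12.1% of all kept probes) and for 14 with miR-155 (23.0%, against 12.2%). The medians were 1.13 and 1.26, beside 0.90 and 0.88 over all kept probes. In both cell populations and both orientations 14 of the 61 passed, against 8.20% of all kept probes, and 1 was at most 0.5 throughout, against 3.13% of all kept probes. In the miR-155/EV ratio 1 of the 61 reached 2 (1.64%, close to the 1.15% of all kept probes). None changed 2-fold in total RNA, where 0.676% of all kept probes were at least 2-fold higher and 0.38% at least 2-fold lower. The median miR-155/EV ratio of the 61 was 1.00.

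Ligands and other receptors held no enriched probe. Of 24 ligand genes, TGFB1, BMP7, GDF11 and AMH had a kept probe, with IP/T between 0.552 and 0.961 in EV-ST486 and between 0.576 and 1.26 with miR-155. Of the other receptors, ACVR1B, ACVR2B, BMPR1A and BMPR2 had a kept probe. BMPR2, the type II receptor for BMPs, was the kept pathway probe with the highest miR-155/EV ratio, 2.51 (2.33 and 2.72, at least 2 in both orientations as in 0.67% of all kept probes), with an IP/T of 0.603 in EV-ST486 and 1.52 with miR-155. It was detected in 5 channels, and its total ratio was 0.956. Another BMPR2 probe, also detected in 5 channels but removed for its dye difference, had a miR-155/EV ratio of 1.23, with orientations on opposite sides of 1 (1.91 and 0.789).

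The enriched probes belonged to the other 4 lists, to be read against 12.1% and 12.2% of all kept probes. Of 5 kept probes of extracellular regulators, BAMBI, a pseudoreceptor that dampens signalling, had an IP/T of 9.29 in EV-ST486 and 8.72 with miR-155, and NRROS, which anchors latent TGF-β, 4.38 and 3.53. Of 29 kept probes of intracellular regulators 8 were enriched in each cell population (27.6%). They included the co-repressor TGIF1 (7.29 and 12.7), the deubiquitinase USP15 (10.5 and 5.95) and the ubiquitin ligases SMURF1 (7.64 and 7.36), RNF111 (5.90 and 6.42) and SMURF2 (4.09 and 5.08). A second USP15 probe had IP/T of 1.68 and 1.56, so the probes of this gene disagreed on the call. A probe of STRAP, a receptor-associated protein, was depleted (0.348 and 0.448), and the other kept STRAP probe had 0.912 and 0.623. Of 8 transcription partner probes 1 was enriched in each cell population, a share near that of all kept probes. This probe, of E2F5, which acts with SMAD3 on cell-cycle genes, had the highest IP/T of the lists (14.1 and 13.2). Among 11 target gene probes 5 were enriched in EV-ST486 (45.5%) and 3 with miR-155 (27.3%). Of these, 1 probe of BCL2L11, a pro-apoptotic gene, had 4.93 and 5.94, CDKN1A, a cell-cycle inhibitor, 3.78 and 3.87, and KLF10 3.77 and 3.62. The other 2 kept probes of BCL2L11 lay below 1 in both cell populations.

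**Figure D5:**
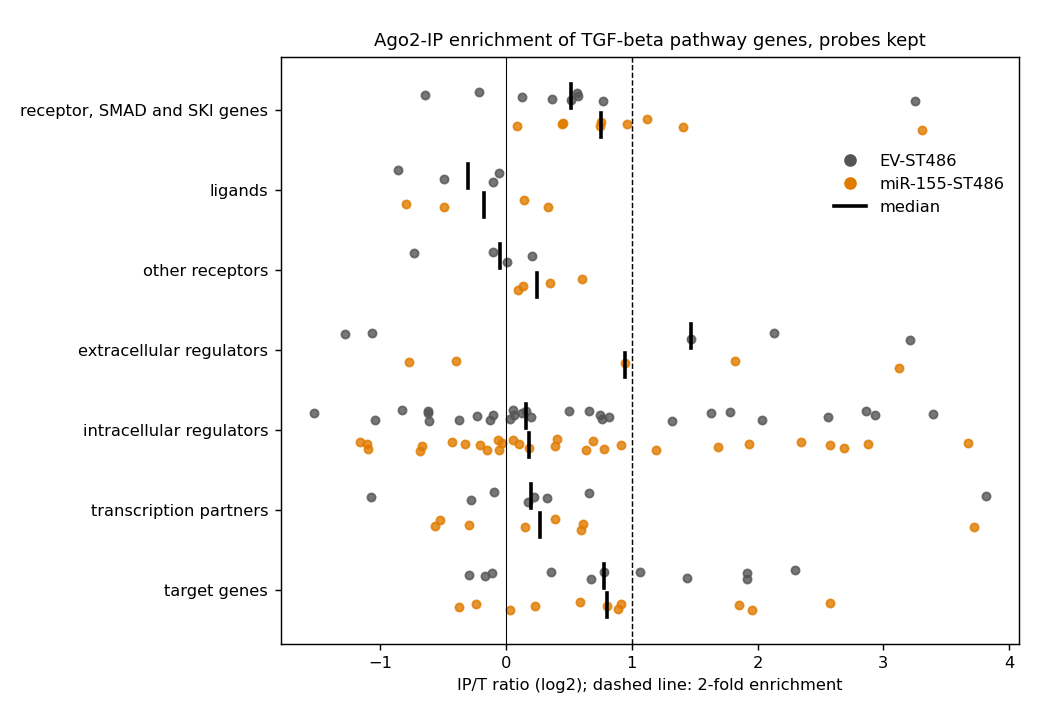
IP/T ratio (log2) of the kept probes of the receptor, SMAD and SKI genes and of the 6 lists of other pathway genes in EV-ST486 (grey) and miR-155-ST486 cells (orange); each point is 1 probe and the bars are medians. The probes right of the dashed line are enriched at least 2-fold, with none among ligands and other receptors.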

How the data were processed

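Total and Ago2-IP RNA from cells with the empty vector or with miR-155, each labelled with Cy3 and Cy5, were measured on 4 Agilent arrays. The deposited files hold intensity values from Agilent Feature Extraction 10.5.1.1 (version from the submitters' processing notes); the authors' settings, per the file headers, subtracted background and normalized the dyes of each array. Deposited log2 values had been made by the authors after quantile normalization and filtering. Of these 14446 of 14453 probes were among those kept here, and 99.9% of the values lay within 0.05 of the values made here. Each array was deposited under both channels with identical content, and each channel was used once.

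Controls were left out, spots of a probe averaged, signals below 1 set to 1, and log2 values quantile-normalized over the 8 channels. Probes were kept when detected (positive, significant and well above background in at least 1 spot) in 4 or more channels with labellings within 2-fold. Labellings were averaged as geometric means. IP/T is IP over total signal. The miR-155/EV ratio divides the IP/T with miR-155 by that with the empty vector. With 1 RNA sample per condition no test was run, and precision is limited by having 4 arrays. Symbols came from RefSeq accessions. One listed marker gene is not reported here. Where a group was not well above background, a lower bound was set after normexp, loess and Aquantile from the dimmest signal well above background. The ratio calculation was also run on simulated channels with known ratios and independent noise. These channels held no dye, slide or background effects, so that run does not bear on such effects.

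Members and lists were chosen with earlier results of these data known. Named are all member probes and, of the pathway lists, up to 5 probes per list that passed 2-fold in both orientations of both cells or in miR-155/EV. Other probes of the same genes, and the ligands and receptors with a kept probe, were added once values were known. Alternatives were normexp (offset 50, local backgrounds above 500 set to the channel median) with quantile or with loess and Aquantile normalization, no quantile normalization, the deposited values, detection in all 8 channels, no detection or dye filter, arithmetic means, single orientations, single dyes, and outlier spots left out. Software was R 4.3.3 with limma 3.58.1, and Python 3.11.15 with pandas 2.3.3, numpy 2.4.6 and matplotlib 3.10.9.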

Additional observations from a re-analysis of the deposited data

Results flagged for a closer look

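For 3 member probes the IP/T lay on opposite sides of 1 with the empty vector and with miR-155 in both dye orientations, and the difference was not tested, as each condition has 1 RNA sample. SMAD2 probe 2 had a miR-155/EV ratio of 1.57, from an IP/T of 0.905 and 0.824 in EV-ST486 to 1.42 and 1.30 in miR-155-ST486 cells. SMAD2 probe 4 had a ratio of 1.67, from 0.686 and 0.594 to 1.11 and 1.02. With normexp background correction the crossing of SMAD2 probe 2 was lost, its IP/T in EV-ST486 being 1.17 with quantile normalization and 1.16 with loess and Aquantile, and its miR-155/EV ratio 1.03 and 1.15. The ratio of SMAD2 probe 4 became 1.31 and 1.17, with its IP/T in EV-ST486 still below 1 (0.842 and 0.940). SMAD6 had a ratio of 0.271, from 4.11 and 1.54 to 0.989 and 0.469, but was removed by the filter on dye differences and detected in 5 channels. Its crossing was also lost with normexp, where the ratio was 0.908 and 0.972. Among all kept probes 3.23% had IP/T ratios on opposite sides of 1 in this way.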

How the results depend on the processing

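Over 13 alternatives, 8 to 13 member probes were kept. A miR-155/EV ratio above 1 was seen for 7 of 13 with normexp and quantile normalization and 8 of 13 without the dye filter. It was seen for 12 of 13 with normexp, loess and Aquantile and 9 of 9 in the Cy3 labellings alone. The probes of SMAD1, SMAD2 and SMAD5 kept in the main processing lay above 1 wherever they were kept, between 1.03 and 2.42. SMAD2 probe 3 lay below 1 with normexp and quantile normalization (0.947) and without the dye filter (0.348). TGFBR2 probe 1 stayed above 2-fold, with an IP/T of 5.57 to 10.5 in EV-ST486 and 6.49 to 11.0 in miR-155-ST486 cells. Single values moved by more than the spread of the labellings 83 times, 25 and 23 of them with the normexp corrections, against 576 that did not. Settings that changed only a filter left single values as they were, and a single orientation cannot lie beyond that spread by construction. Part of the 576 was thus fixed in advance, and this count does not measure robustness. The normexp effects on SMAD2, SMAD5, SMAD6, SMAD7, SKI and TGFBR2 stand beside those results, and SMAD1 probe 2 came below 2-fold with miR-155 (1.92) with quantile normalization after normexp. Medians and counts over the members that moved were as follows. With normexp and quantile normalization the median log2 IP/T in EV-ST486 was 0.24, 1 probe was enriched in miR-155-ST486 cells, the median log2 miR-155/EV ratio was 0.044 and the median log2 total ratio 0.0084. With normexp, loess and Aquantile these medians were 0.21 (IP/T in EV-ST486), 0.23 (miR-155/EV) and -0.10 (total), and SMAD2 probe 3 turned to a log2 miR-155/EV of 0.033. Without quantile normalization the median log2 total ratio was 0.23. Without the detection filter 1 probe (TGFBR1, not above background) changed 2-fold in total RNA. Without the dye filter 5 probes were enriched in each cell population, 1 (SMAD2 probe 3) changed 2-fold in total RNA, and the medians were 0.20 (miR-155/EV) and 0.065 (total). The arrays with IP in Cy3 gave a median log2 IP/T of 0.27 in EV-ST486. Those with IP in Cy5 gave 3 enriched probes in EV-ST486 (SMAD1 probe 2, SMAD3 and TGFBR2 probe 1) and 5 in miR-155-ST486 cells, with a median of 1.06 there. With 1 dye left out, 0 to 2 probes reached a miR-155/EV ratio of 2, and the median log2 ratio was 0.33 to 0.63. No paired analysis was possible because the replicate numbers mark the dyes of the same RNA, which leaves 1 sample per condition. Dim probes near background, SMAD6, SMAD7, SKI and SMAD2 probes 3 and 4, are limited by their signal over background.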
